A study of Homo sapiens with 5 samples.

Results

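LRRC61 (ENSG00000127399), a gene counted in the CAG line alone, was described with the 4 rows on either side of it in the deposited table of nascent RNA. The members were 9 consecutive rows in the order of the file, of 20001 with an identifier, centred on LRRC61. Rows are numbered here by their distance from LRRC61, negative before it and positive after it. LRRC61 was chosen on its counts in these same libraries, so its values are given as a description without a test. The 8 other rows were taken by their place only. LRRC61 was the single row with a name in the sources used here, and the others are given by row and identifier.

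The libraries were PRO-seq of HEK293T, a human embryonic kidney line with the SV40 large T antigen. The CAG landing pad gave 3 libraries and the PGK landing pad gave 2, all from cells with no treatment named in the labels. CAG is a strong composite promoter and PGK is the promoter of a glycolytic housekeeping gene, each placed at a landing pad, a genomic site that accepts inserted DNA. The lines are monoclonal, so a clone grew from a single cell, and the number of clones per promoter is not in the labels. Promoter and clone therefore cannot be told apart. Library totals ran between 4873883 and 5864157 counts in CAG and were 5582070 and 3712105 counts in PGK. The labels do not call the replicates separate cultures, so the p-values measure the spread between these libraries only, which may be technical. Marker genes of HEK293T and of other cell types were not analysed here, because identifiers were not paired with names.

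In PRO-seq, engaged RNA polymerases add biotin-labelled nucleotides to the RNA they are making, and the captured reads report transcription in progress. LRRC61 encodes a protein with leucine-rich repeats, a fold that commonly serves as a surface for binding other proteins, and its cellular role is little known. Genes that lie side by side can share a promoter region, a domain of open or closed chromatin, or the fate of a stretch of DNA that is gained or lost. The row neighbours were read to ask whether the on/off difference of LRRC61 is shared.

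RefSeq (GRCh38.p14) places LRRC61 on chromosome 7, on the plus strand. The protein-coding genes listed beside it are ACTR3C, which encodes a protein related to a subunit of the actin-nucleating Arp2/3 complex, and RARRES2, which encodes the secreted attractant chemerin. ACTR3C lies on the minus strand and its span overlaps that of LRRC61, as does the span of the pseudogene ZBED10P. The nearest of 4 annotated ACTR3C starts lies 190 bases downstream of the LRRC61 start, so the 2 genes overlap at their 5′ ends. The count table was made on hg19 with a strand setting that the sources used here do not give, so counts of overlapping genes are uncertain. No row was assigned to ACTR3C, RARRES2 or ZBED10P.

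The RefSeq window of LRRC61, from 250 bases before its annotated start to 50 bases after it, had a GC content of 67.7%, against a median of 58.7% over 34943 such windows. It held 32 CpG dinucleotides, against a median of 14, and 81.2% of the windows held fewer. The letters CCGGAAGT, known as a binding site of ETS factors, were found once, 79 bases before the start, and 4.11% of the windows hold them on either strand. The letters TATAAA of the TATA box and CCAAT of the CCAAT box were not in the window on either strand, and 11.6% and 34.6% of the windows hold them. These motifs were picked after the sequence had been read, a single match leaves no overlap between motifs, and a match is not a bound site. Because LRRC61 is the member that was counted in one line and not in the other, 2 stretches of its window are shown on the plus strand (GRCh38.p14), with the ETS letters in capitals in the first (chr7:150323265-150323294) and the annotated start base in capitals in the second (chr7:150323340-150323369).
LRRC61, ETS letters: aggctgcgcttCCGGAAGTaacccctggcg
LRRC61, annotated start: ctgggcgcgttccggGagctcaggcctgcg

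LRRC61 had 231, 233 and 248 counts in the CAG libraries and 0 counts in both PGK libraries. As CPM, counts divided by the library's TMM-scaled size and multiplied by 1000000, these were 47.0, 46.1 and 42.2 CPM in CAG, a mean of 45.1 ± 2.54 CPM (SD, n = 3). Every CAG library was high, both PGK libraries were at 0, and the groups did not overlap. In CAG the level lay near the middle of all tested genes, with 48.7% of 13400 genes below it. The exact Poisson 95% intervals of the CAG libraries overlapped, running from 41.1 to 53.5 CPM in replicate 1, from 40.4 to 52.4 CPM in replicate 2 and from 37.1 to 47.8 CPM in replicate 3. The coefficient of variation over the CAG libraries was 5.64%, where counting alone gives about 6.49%, and the median over 3350 genes within 1.5 times this CAG level was 5.98%. The CAG libraries thus differed from each other by no more than counting error.

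A count of 0 over both PGK libraries allows a level of up to 0.326 CPM (3 counts), and the CAG mean of LRRC61 was 138 times this limit. That ratio leaves out the counting error of the CAG libraries, so it is not a strict lower bound. The exact interval of the pooled CAG level began at 41.7 CPM, and that of the pooled PGK level reached 0.401 CPM. These limits cover counting error only. In bulk libraries, fewer transcribing cells and less RNA per cell cannot be told apart. Having 0 counts in both PGK libraries and at least 10 in each CAG library was seen in 9 genes, LRRC61 included, or 0.0672% of the tested genes.

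The row just before LRRC61 was also high in CAG and nearly silent in PGK. Row -1 (ENSG00000106526) had 350, 341 and 415 counts in the CAG libraries, against 5 and 2 counts in the PGK libraries. Its CAG libraries stood at 71.2, 67.4 and 70.6 CPM and its PGK libraries at 0.887 and 0.561 CPM. All CAG libraries lay far above both PGK libraries, and the PGK counts were few but not absent. The mean was 69.7 ± 2.02 CPM in CAG (SD, n = 3) and 0.724 ± 0.23 CPM in PGK (SD, n = 2). The fitted log2 fold change was 6.47, and edgeR's quasi-likelihood test over all tested genes called it. The ratio of pooled levels, CAG over PGK, was 91.8 with an exact 95% counting interval of 44.4 to 229, so with 7 PGK counts its size is known only within that interval. Row -1 had the 15th largest fitted rise of the 13400 tested genes, and LRRC61 and row -1 both passed the filter on low counts through their CAG libraries alone, so a tested row with so few PGK counts had to differ and the call adds nothing to the counts.

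Of the counts of both rows together, LRRC61 held 39.8% in CAG replicate 1, 40.6% in replicate 2 and 37.4% in replicate 3. With a median coefficient of variation of 5.98% among genes of like CAG level, so narrow a range is not particular to these rows. The PGK libraries hold too few counts for such a share.

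**Figure D1:**
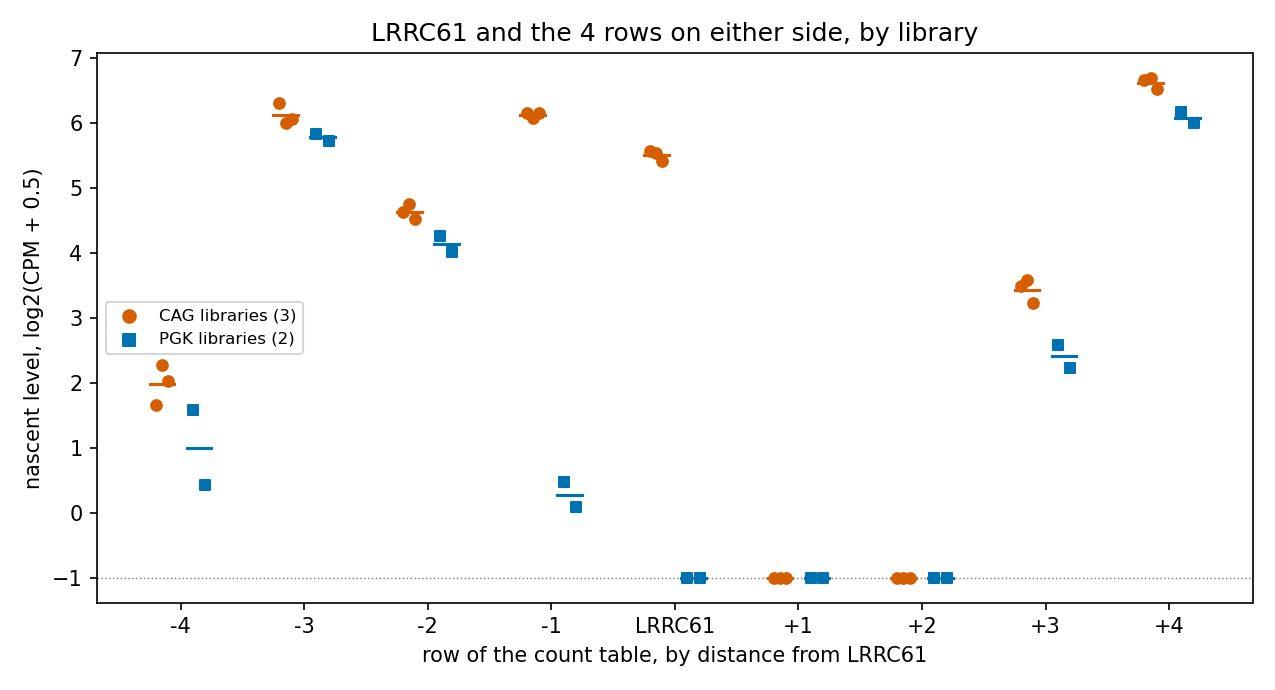
Nascent level of each of the 9 rows as log2(CPM + 0.5), with the 3 CAG libraries as orange circles to the left of the 2 PGK libraries as blue squares, short lines for group means and a dotted line for a count of 0. Row -1 and LRRC61 are high in CAG and near or at 0 in PGK, and rows +1 and +2 are at 0 in every library. The other rows are higher in CAG by fitted folds of at most 2.06.

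The rows after LRRC61 did not show the same difference. Row +1 (ENSG00000188707) and row +2 (ENSG00000106538) had 0 counts in all 5 libraries. A count of 0 allows up to 0.189 CPM over the CAG libraries and up to 0.326 CPM over the PGK libraries, by counting error only. At this depth and as counted, transcription was not detected there in either line, and no comparison of lines was possible. The strand setting and the counted part of a gene are not given, so a count of 0 need not mean that these rows were silent. The filter on low counts left both untested.

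Row +3 (ENSG00000214022) had 53, 58 and 52 counts in the CAG libraries, against 31 and 15 counts in the PGK libraries. Its level was 10.4 ± 1.36 CPM in CAG (SD, n = 3) and 4.85 ± 0.913 CPM in PGK (SD, n = 2). The groups did not overlap, and PGK transcription was clearly present. The log2 fold change was 1.04 with a standard error of 0.25 (edgeR adjusted p = 0.00113), a 2.06-fold rise.

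Row +4 (ENSG00000196456), the last of the window, had 495, 522 and 537 counts in the CAG libraries, against 403 and 227 counts in the PGK libraries. It averaged 98.4 ± 6.24 CPM in CAG (SD, n = 3) and 67.5 ± 5.52 CPM in PGK (SD, n = 2). Both lines transcribed it, and the CAG libraries were all above the PGK libraries. The rise was 0.53 on the log2 scale with a standard error of 0.08 (edgeR adjusted p = 1.31e-05).

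The rows further before LRRC61 were transcribed in both lines. Row -2 (ENSG00000171130) had 119, 134 and 133 counts in the CAG libraries, against 105 and 56 counts in the PGK libraries. It averaged 24.4 ± 1.95 CPM in CAG and 17.2 ± 2.06 CPM in PGK, and its log2 fold change was 0.49 with a standard error of 0.15 (edgeR adjusted p = 0.0112). The groups did not overlap, but the call is not firm: the adjusted p was 0.0515 without CAG replicate 2, also 0.0515 without PGK replicate 2, and 0.0742 by DESeq2.

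Row -3 (ENSG00000106479) had 388, 321 and 392 counts in the CAG libraries, against 319 and 187 counts in the PGK libraries. Its level was 69.7 ± 8.15 CPM in CAG (SD, n = 3) and 54.5 ± 2.92 CPM in PGK (SD, n = 2), and its log2 fold change of 0.34 with a standard error of 0.10 was the smallest of the tested neighbours (edgeR adjusted p = 0.00587). The groups did not overlap, and without CAG replicate 1 the adjusted p was 0.0627.

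Row -4 (ENSG00000181444), the first of the window, was scarce, with 13, 22 and 21 counts in the CAG libraries against 14 and 3 counts in the PGK libraries. Its level was 3.52 ± 0.854 CPM in CAG (SD, n = 3) and 1.66 ± 1.16 CPM in PGK (SD, n = 2). The lowest CAG library lay just above the higher PGK library, and the difference did not pass the test (log2 fold change 0.93, standard error 0.41, edgeR adjusted p = 0.068). The size rested on the PGK replicates: it was 2.03 without PGK replicate 1 (adjusted p = 0.016) and 0.51 without PGK replicate 2.

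Of the 8 row neighbours, 6 were tested, 5 were called higher in CAG at an adjusted p under 0.05 and 0 were called lower. The call of row -1 adds nothing to its counts, and without that row 4 of 5 tested neighbours were called higher. Among all tested genes, 43.4% were called in either direction and 22.7% were called higher in CAG. The 5 tested neighbours other than row -1 had every CAG library above every PGK library, only narrowly at row -4. This held for 30.9% of all tested genes. With 3 counts in PGK replicate 2, row -4 needed its CAG libraries to pass the filter on low counts. Its place among the tested rows, and in the medians below, was thus not independent of its CAG level. A rise of at least 4-fold was seen in 1 of the 8 neighbours, row -1. It was seen in 0 of the 5 other tested neighbours, against 1.04% of all tested genes. The median log2 fold change of the tested neighbours was 0.73, and 0.53 with row -1 left out, while the median of all tested genes was -0.0046. A near-complete difference between the lines was thus seen in a single neighbour, and the other 5 tested rows had counts in every library of both lines, with fitted folds of at most 2.06.

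Modest rises were also seen in the wider surroundings. Within 50 rows on either side of LRRC61, 51 other rows were tested and 31 were called higher in CAG, with 0 called lower. Among all tested genes, 22.7% were called higher. The 31 include row -1 and row +41, which passed the filter on low counts through their CAG libraries alone. The median log2 fold change of the 51 rows was 0.34, and it was 0.34 in the 24 tested rows before LRRC61 and 0.35 in the 27 after it. The rise was not even, and none of the tested rows from -48 to -19 was called. In row order they stood at -0.20, -0.07, 0.34, -0.10, 0.85, 0.14 and -0.17 on the log2 scale. The median of the rows within 50, LRRC61 included, was then taken out of their fold changes. Of the 6 tested neighbours, 2 were still called higher, row +3 and row -1, whose call again adds nothing to its counts. Row +4 then differed by 0.18 on the log2 scale (edgeR adjusted p = 0.08) and row -2 by 0.14 (adjusted p = 0.485).

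Just outside the window, row -5 averaged 65.9 ± 6.21 CPM in CAG (SD, n = 3) and 44.5 ± 11.3 CPM in PGK (SD, n = 2), a fitted fold of 1.44. Row +5, on the other side, had 0 counts in every library.

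One further row within 50 of LRRC61 was at least 4-fold higher in CAG. Row +41 had 26, 26 and 20 counts in the CAG libraries, against 1 and 0 counts in the PGK libraries. Its ratio of pooled levels, CAG over PGK, was 41.8 with an exact 95% counting interval of 7.27 to 1675, and it too passed the filter on low counts through its CAG libraries alone. The 49 tested rows under 4-fold lay between -0.25 and 1.13 on the log2 scale, 43 of them above 0. The median of all tested genes was -0.0046. Rows transcribed in both lines lay between LRRC61 and row +41.

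**Figure D2:**
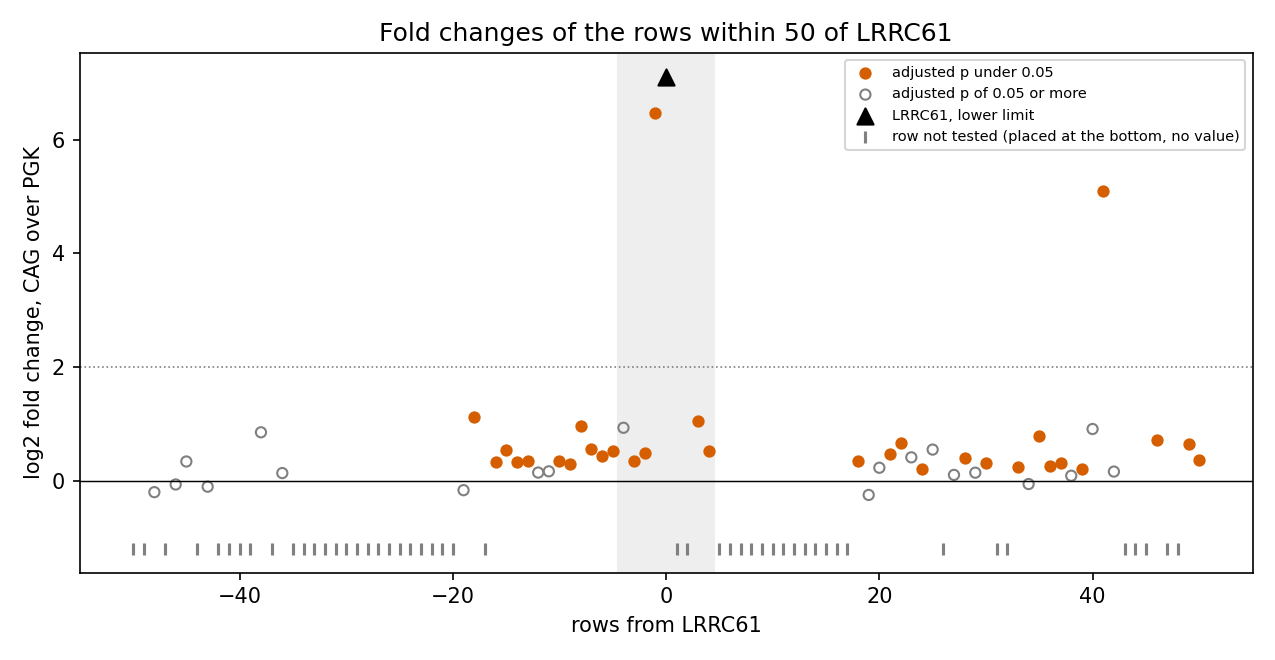
Log2 fold change of CAG over PGK (vertical) for each tested row by its distance in rows from LRRC61 (horizontal), filled where the adjusted p was under 0.05, with the 9 rows shaded, ticks at the bottom for rows not tested and a dotted line at 4-fold. LRRC61 is drawn as a triangle at its CAG mean over the PGK limit of 3 counts. Row -1 stands beside it at 6.47 and row +41 at 5.10, while the other tested rows lie between -0.25 and 1.13.

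Adjacent rows with large rises were found elsewhere too. Of 140 genes at least 4-fold higher in CAG by the fitted fold change, 10 (7.14%) had an adjacent row that was also at least 4-fold higher, forming 5 pairs. Of all tested genes, 1.04% were that much higher. The shares are not alike, because a row on either side counted for the pairs. LRRC61, chosen on these values, is among the 140 genes. At 32-fold there were 22 genes, of which 4 (18.2%) formed 2 adjacent pairs, one of them LRRC61 with row -1. Fitted folds of genes with a PGK count of 0 depend on the prior count, so the number at 32-fold is approximate.

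The other 8 genes with 0 counts in PGK and at least 10 counts in each CAG library had CAG means of 2.31 to 27.2 CPM, all below LRRC61. These means were 7.08 to 83.4 times the PGK limit of 0.326 CPM. The counting error of the CAG libraries is again left out, so these ratios are not strict lower bounds. Of the 8 genes, 4 had at most 20 counts in every CAG library. For 6 of the 8 an adjacent row was tested, and for 2 it was at least 4-fold higher. Those 2 were scarce: ENSG00000163840 had 17, 16 and 16 counts in CAG and ENSG00000178567 had 13, 13 and 10. Within 4 rows, 5 of the 8 had a tested neighbour at least 4-fold higher, 5 of 30 tested neighbours in all, against 1 of 6 for LRRC61. Of all tested genes, 1.04% were at least 4-fold higher. A large rise within 4 rows of a gene with 0 PGK counts was thus seen at other places in the table too, but in the adjacent row only beside 2 scarce genes.

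Profiles over the 5 libraries were compared by the Euclidean distance between log2 CPM values (prior count 2). The gene most like LRRC61 was ENSG00000170627 at row 11994, with a distance of 1.26 and 132, 136 and 163 counts in CAG against 0 in both PGK libraries. Next came ENSG00000198131 at row 17874, with a distance of 1.51 and 240, 259 and 301 counts in CAG against 4 and 0 in PGK. The other 3 of the nearest 5 had distances of 1.73 to 2.23. Row -1 was the 6th most alike of 13399 genes, with a distance of 2.38, where the median distance was 9.80. The closest in place of the nearest 5 lay 4105 rows from LRRC61, and these distances describe 5 libraries without a test.

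**Figure D3:**
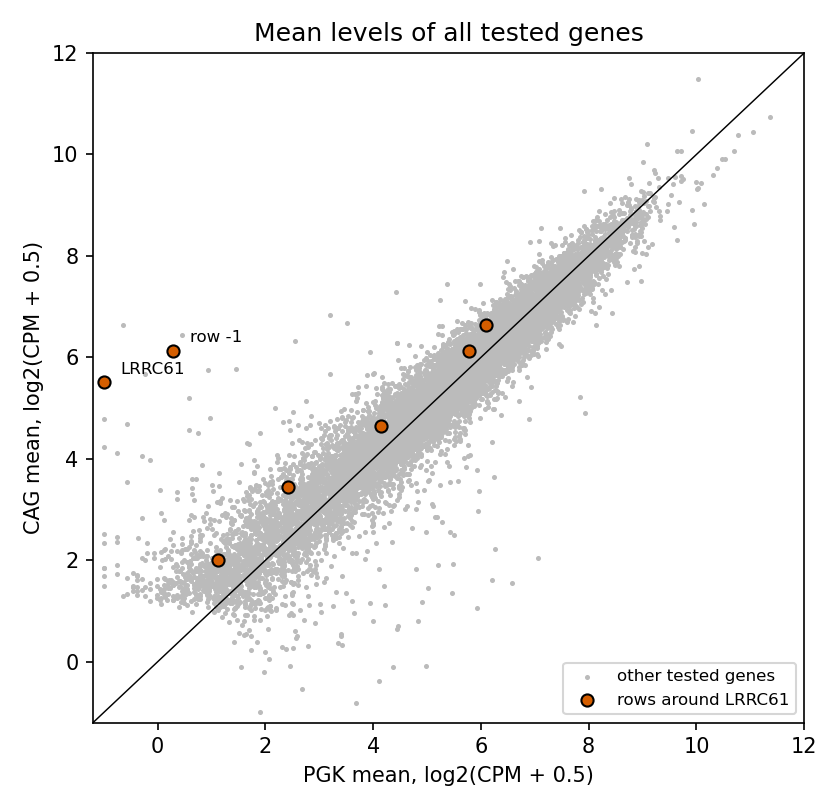
Mean nascent level in CAG (vertical) against PGK (horizontal), both as log2(CPM + 0.5), for the 13400 tested genes in grey and the 7 tested rows around LRRC61 in orange, with a line of equality. LRRC61 and row -1 lie at the left edge among few other genes, and the other 5 rows lie within the main cloud, above the line.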

How the data were processed

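Nascent RNA was measured in 5 libraries, grouped by the promoter and replicate number in their titles. The authors deposited unnormalized counts, 1 per Ensembl identifier and library. The submitters' processing notes name the build hg19 and the tools featureCounts 2.0.3, HISAT2 2.2.1, Bowtie2 2.5.1, fastp 0.23.2, UMI-tools and cutadapt. What each tool did, the annotation, the strand setting and the counted part of a gene: not given in the sources used here. All columns matched a sample.

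The table held 20019 rows, of which 18 had no identifier and were left out, at most 0.000448% of a library. Rows keep the order of the file, and nothing in the labels says what orders them, so neighbouring rows need not be neighbouring genes.

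Genes were kept by edgeR's filterByExpr (minimum count 10, minimum total 15), which left 13400. Counts were scaled by TMM, and CAG over PGK was tested with edgeR's quasi-likelihood F test (edgeR 4.0.16, R 4.3.3), with Benjamini-Hochberg adjustment over all tested genes. Standard errors are the log2 fold change, without sign, divided by the root of F. For row -1 this is below counting error, and a counting interval is given instead. Intervals are exact at 95% and cover counting error only. Replicates were compared by chi-square per degree of freedom, 1.63 to 1.83 in CAG pairs and 4.40 in the PGK pair, so no library was a repeat. Alternatives were DESeq2 1.42.0, limma-trend (limma 3.58.1), other size factors, other filters, the replicate number as a block, other window widths and leaving out each library.

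The members and lists were chosen with earlier results of these data known. Named genes were all 9 rows, the 5 profiles nearest to LRRC61, of which 2 are printed by identifier, and the genes with 0 PGK counts and at least 10 counts in each CAG library. The lists of 7q36.1, GIMAP and cell type marker genes were not analysed here, since identifiers were not paired with names. No RNA-seq was used. RefSeq sequences were matched by symbol, for LRRC61 alone.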

Additional observations from a re-analysis of the deposited data

Results flagged for a closer look

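The 18 rows without an identifier, which no comparison used, held 95 counts over the 5 libraries, above the limit of 3 counts that a count of 0 allows. They held 21, 15 and 21 counts in the CAG libraries and 25 and 13 counts in the PGK libraries. No line had the 4 libraries that a test for a library standing apart needs.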

How the results depend on the processing

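Leaving out row -1 was chosen after seeing the data, and every other alternative was listed earlier. In all, 5818 genes were called, and all alternatives kept within 1.5 times of that, from 3943 by DESeq2 (2099 higher and 1844 lower, against 3046 and 2772) to 6024 with no filter, and 4754 to 5689 with 1 library left out. Leaving out PGK replicate 1 gave 2812 higher and 2877 lower, against more rises than falls with it. Upper-quartile factors gave 3195 higher and 2499 lower.

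With 5 neighbours called higher, the count was 4 by DESeq2, 6 by limma-trend, and 4 to 6 with 1 library left out. A lone PGK library was given the spread of the CAG libraries. Widths of 2, 10, 20 and 50 rows on each side gave 2, 11, 17 and 31 calls. The rows tested were 2, 12, 23 and 51, so the share called fell as the window widened. Relative to the rows within 50, 2 were called, because the median shift of those rows was taken out, and row -3 turned to -0.00058 on the log2 scale.

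Of the neighbours, 1 was at least 4-fold higher. This became 2 within 50 rows, 0 when every library had to hold 1 CPM, where row -1 and LRRC61 were not tested, 0 with row -1 left out, and 1 to 2 with 1 library left out, with 2 without PGK replicate 1, when row -4 passed 4-fold. The median log2 fold change of 0.73 became 3.48, 0.35 and 0.34 at 2, 20 and 50 rows, 0.39 relative to the rows within 50, and 0.48 to 0.95 with 1 library left out, lowest without PGK replicate 2. For row -1 the log2 fold change stayed between 5.98 and 6.89 in the 12 alternatives that tested it. It was tested there through its CAG libraries alone, so its calls add nothing to the counts.

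The replicate number as a block gave 4667 genes, 5 neighbours called and a median of 0.76. The labels name no shared batch and deviations from the line means correlated at 0.04 for replicate number 1 and -0.07 for number 2, so a pairing was not assumed. Depth limits the scarce rows, with 3 to 14 counts in the PGK libraries at row -4 and 2 to 5 at row -1.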
